A study of Mus musculus with 3 samples.

Results

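Motile cilia are beating hairs on the ependymal cells that line the brain ventricles, and each holds a ring of microtubule doublets around a central pair, with dynein arms as motors and radial spokes that pass signals from the pair to the arms. The transcription factor Foxj1 switches on most of the genes that build them. In the brain, ependymal cells and the epithelium of the choroid plexus border the ventricle beside the hippocampus, and both have tufts of cilia. The genes described here are 34 ependymal and axonemal genes chosen by name, of which 33 stood among the 27317 gene names of the array files. The 34th, Cfap126, was not found under that name.

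The study asked whether the hippocampus of adult sons differs between older and young mothers. One group was sons of mothers paired at 15 to 18 months of age, and the other, the control, was sons of mothers paired at 3 months, with fathers 3 months old in both. The sons were killed at postnatal day 120, and each RNA sample was a pool of equal amounts of RNA from 3 males, with 3 pools per group. Each of 3 two-colour arrays carried an older-mother pool in Cy3 and the equally numbered young-mother pool in Cy5, always in these dyes, so dye and maternal age cannot be told apart in a ratio. The labels used here give no strain and do not say whether pooled animals shared a litter. The p-values measure the spread of the 3 array ratios, into which both pools and hybridisation enter, and not the spread between animals.

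The median signal over local background was 54.8 to 59.3 intensity units in Cy3 and 144 to 155 in Cy5, with 0 saturated spots. Of the 33 genes, 31 had a probe well above background in one dye on all 3 arrays and were tested, with 28 of them above background in Cy3 on every array. Ak7 and Spag17 were too dim. Of 14 hippocampal neuron markers 13 were tested, 2 were higher and 2 lower in older-mother pools, and all 13 were above background in both dyes throughout. The 7 genes that mark ependymal cells (Foxj1, Ccdc153, Tmem212, Rarres2, Dynlrb2, Fam183b and Mia) were above background in all 6 pools too. In such bulk tissue fewer cells of a type and less RNA per cell cannot be told apart.

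RFX factors, which act beside Foxj1 on genes of cilia, bind a DNA motif called the X-box, and upstream sequence of a few of the genes is shown for that reason. RefSeq promoters (GRCm38.p6, from 250 bases before to 50 after the start) were matched for 30 of the 34 genes. Foxj1, Rarres2, Rsph1 and Rsph4a were not matched. Only 1 strict form of the full palindromic X-box was searched, with its arms a fixed distance apart. This strict form, read on both strands, was found in 0 of 30 genes, against 0.529% of 27025 genes. Looser forms, with another spacing or a changed base in an arm, were not counted. The count therefore does not show that these promoters lack a full X-box. The letters GTTGCCA, an X-box arm with a final A, read on both strands, were found in 3 of 30 genes (10.0%), against 5.02% of all genes. Arms with another last base were not counted. The forkhead motif TGTTTAC, also read on both strands, was found in 1 of 30, Ak7, against 4.05%. A match here is a run of letters and not a measured site. The 250 bases before the start are printed 5′ to 3′ for the 3 genes with the arm motif and for Tmem212, the one of the 31 tested genes with the widest gap between arrays 1 and 2, which had no match, with GTTGCCA or its reverse complement in capitals. They lie at chr6:124779728-124779977 (Lrrc23, minus strand), chr8:110266727-110266976 (Hydin, plus strand), chr11:72361883-72362132 (Tekt1, minus strand, one of its starts) and chr3:27896369-27896618 (Tmem212, minus strand).
Lrrc23: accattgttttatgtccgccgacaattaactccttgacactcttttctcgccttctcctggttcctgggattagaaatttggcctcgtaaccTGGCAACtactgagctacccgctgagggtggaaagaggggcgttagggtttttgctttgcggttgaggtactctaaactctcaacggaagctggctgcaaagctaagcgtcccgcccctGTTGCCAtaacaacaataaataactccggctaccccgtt
Hydin: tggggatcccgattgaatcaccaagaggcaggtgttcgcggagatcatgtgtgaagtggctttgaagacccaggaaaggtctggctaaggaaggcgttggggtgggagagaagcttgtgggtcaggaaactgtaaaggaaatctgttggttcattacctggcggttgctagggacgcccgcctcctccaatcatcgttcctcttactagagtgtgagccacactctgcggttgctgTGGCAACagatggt
Tekt1: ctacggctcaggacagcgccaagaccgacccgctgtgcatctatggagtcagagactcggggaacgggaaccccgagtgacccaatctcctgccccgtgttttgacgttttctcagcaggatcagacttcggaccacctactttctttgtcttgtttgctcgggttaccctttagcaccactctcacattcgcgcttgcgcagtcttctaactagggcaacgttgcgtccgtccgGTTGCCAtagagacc
Tmem212: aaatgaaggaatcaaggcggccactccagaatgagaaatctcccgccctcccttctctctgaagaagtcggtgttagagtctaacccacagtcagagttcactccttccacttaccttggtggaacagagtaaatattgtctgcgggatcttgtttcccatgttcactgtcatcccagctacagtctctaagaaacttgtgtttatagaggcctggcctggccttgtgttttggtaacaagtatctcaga

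Of 31 genes 1 rose in older-mother pools, the tektin Tekt4, and 0 fell (limma, Benjamini-Hochberg adjusted p under 0.05 over all 27631 kept probes), while of 19528 genes tested 7.79% rose and 11.7% fell, 19.4% in either direction. Over all kept probes the shares were 7.92% and 10.7%, or 18.6% in either direction. At an unadjusted p under 0.05, 2 were higher and 6 lower, or 6.45% and 19.4%, against 15.9% and 23.7% of all genes. Their median log2 ratio of older over young was -0.12, with -0.02 for all genes tested, and 23 of 31 had a mean below 0 (74.2%, against 56.3%). Only 9 of 31 were below 0 on all 3 arrays (29.0%, against 35.5% of all genes). Means ran from -0.38 for Rsph1 to 0.27 for Tekt4. The spread between arrays was wide, with a median SD over the 3 arrays of 0.22, against 0.08 for all genes and 0.09 for the 14776 genes in the same range of average intensity. It was not particular to these genes. For the 23 choroid plexus markers and the 15 leptomeningeal fibroblast markers described below, the median SD was 0.70 and 0.20.

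The 7 ependymal markers were higher in the older-mother pool on array 1 and lower on array 2, all 7 of them on both. Foxj1 had 567, 444 and 544 intensity units in the older-mother pools of arrays 1, 2 and 3, against 366, 469 and 512 in the young-mother pools, after background correction and dye balance. Its log2 ratios were 0.63, -0.08 and 0.09, with a mean of 0.21 ± 0.37 (SD, n = 3; limma adjusted p = 0.30, 95% interval from -0.13 to 0.56). The older-mother pool stood highest on array 1, where the young-mother pool was the dimmest of its group. Intensities were not balanced between arrays, so ranks of pools across arrays, here and below, cannot tell pool from array brightness. Tmem212, a small membrane protein, had 497, 328 and 409 units in older-mother pools, against 283, 424 and 411 in young-mother pools. These gave log2 ratios of 0.81, -0.37 and -0.01 and a mean of 0.14 ± 0.61 (SD, n = 3; limma adjusted p = 0.654). Its groups overlapped, as both the highest and the second lowest of the 6 values were in older-mother pools.

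**Figure D1:**
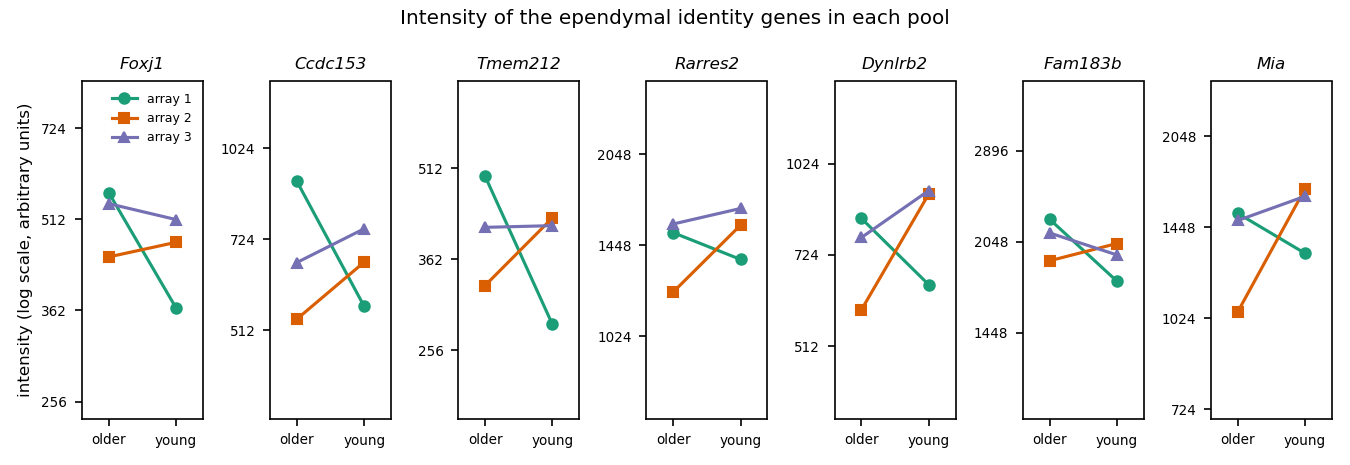
Intensity after background correction and dye balance (log scale, arbitrary units, a separate scale for each gene) of the 7 ependymal markers in the older-mother pool (left) and the young-mother pool (right) of each array, with a line joining the 2 pools of an array. On array 1 the older-mother pool was higher for all 7 genes, and on array 2 it was lower for all 7.

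Ccdc153, a coiled-coil protein widely used to mark ependymal cells, followed the same pattern, with 902, 534 and 663 units in older-mother pools and 561, 664 and 754 in young-mother pools. Its mean log2 ratio was 0.06 ± 0.54 (SD, n = 3). Dynlrb2, a light chain of cytoplasmic dynein, had 832, 588 and 774 units in older-mother pools and 647, 913 and 925 in young-mother pools. Its log2 ratios of 0.36, -0.64 and -0.26 averaged -0.18 ± 0.50 (SD, n = 3). Both genes thus turned sign between arrays. Mia, a small secreted protein, averaged -0.20 ± 0.45, Rarres2, the secreted chemoattractant chemerin, -0.10 ± 0.26, and Fam183b, a ciliary protein, 0.12 ± 0.22 (each SD, n = 3). None of the 7 passed, with limma adjusted p from 0.30 to 0.835. Without replicate 2, the means of Rarres2, Dynlrb2 and Mia were 0.03, 0.05 and 0.04, and without replicate 1 those of Ccdc153 and Tmem212 were -0.25 and -0.19, so their signs rest on 1 array.

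Tektins are filaments inside the wall of the doublets. Tekt4 had 396, 516 and 525 units in older-mother pools, against 344, 400 and 444 in young-mother pools, and was higher on 3 of 3 arrays. Its log2 ratio was 0.27 ± 0.09 (SD, n = 3; limma adjusted p = 0.0288, 95% interval from 0.14 to 0.40), a 1.21-fold difference. The call ended without replicate 2 (limma adjusted p = 0.157), without replicate 3 (0.0786), with Agilent's processed signals (0.0601) and with the channels taken as unpaired (0.121), and held without replicate 1 (0.0454). Without replicate 2 only 1.3% of all genes rose and without replicate 3 only 0.143%, against 7.79% with all 3 arrays. Leaving out each replicate in turn, the mean of Tekt4 ran from 0.22 to 0.31. When each array was centred on its median in place of loess, the value was -0.12, which is 0.28 above the median of all genes there. Tekt2, near background in Cy3, had 108, 106 and 96.4 units in older-mother pools and 90.1, 85.6 and 97.8 in young-mother pools (log2 0.18 ± 0.18, SD, n = 3, limma adjusted p = 0.139). Tekt1 went the other way, with 451, 366 and 528 units in older-mother pools and 456, 616 and 560 in young-mother pools. Its log2 ratio of -0.29 ± 0.41 (SD, n = 3) did not pass (limma adjusted p = 0.216), and array 2 gave most of it, at -0.75.

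All 4 radial spoke genes had a mean below 0 by their brightest probe, and none passed. Rsph1, a spoke head protein, had 640, 470 and 677 units in older-mother pools and 677, 817 and 810 in young-mother pools by its brighter probe. The log2 ratio was -0.38 ± 0.37 (SD, n = 3; limma adjusted p = 0.107, 95% interval from -0.72 to -0.03), and it was -0.17 without replicate 2. A dimmer Rsph1 probe gave 0.29, -0.17 and 0.05, with a mean of 0.06 ± 0.23 (SD, n = 3, limma adjusted p = 0.680), so the 2 probes disagreed in sign but ordered the arrays alike. Bases 16 to 45 of these 60-base probes, and of the Tekt4 probe, are given in the order of the text. In the mm9 build of the files the whole probes lie at chr17:31391969-31392028, chr17:31410354-31410515 and chr17:25613464-25613523, and their exons were not looked up. The interval of the dimmer Rsph1 probe is longer than the probe.
Rsph1 brighter probe: ttgttttttcggttaacaaaataaatctcc
Rsph1 dimmer probe: aagctatgagtttggaaaaagacatggcca
Tekt4 probe: agtgactggggctggcacctggcctcactg
Rsph9, another spoke protein, had 2169, 2058 and 2560 units in older-mother pools and 2447, 2732 and 2778 in young-mother pools. It was lower on 3 of 3 arrays, at -0.23 ± 0.15 (SD, n = 3, limma adjusted p = 0.0679), and passed with a variance trend (0.0450) and without background correction (0.0480). Rsph4a averaged -0.13 ± 0.05 and Lrrc23, also of the spoke, -0.27 ± 0.37 (each SD, n = 3).

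Dynein arm genes did not pass either, and 9 of 10 had a mean below 0. The outer arm heavy chains Dnah5, Dnah9 and Dnah11 averaged -0.07 ± 0.15, 0.05 ± 0.16 and -0.16 ± 0.37, and the outer arm intermediate chains Dnaic1 and Dnaic2 -0.12 ± 0.08 and -0.19 ± 0.15 (each SD, n = 3). The Dnah9 probe used was not matched to a RefSeq gene. A dimmer Dnah9 probe that was matched averaged -0.17 ± 0.19 (SD, n = 3). It was never well above background in Cy3 and was not kept for testing. Among inner arm genes the heavy chains Dnah1, Dnah2 and Dnah6 averaged -0.12 ± 0.11, -0.25 ± 0.33 and -0.23 ± 0.23, Dnali1 -0.12 ± 0.40 and Wdr63 -0.13 ± 0.12 (each SD, n = 3). Dnah2 shows the shared shape, with 262, 223 and 281 units in older-mother pools and 248, 333 and 331 in young-mother pools, so that array 2 had the lowest ratio and array 1 the highest. Without replicate 2 the signs of Dnah11 and Dnali1 turned, to 0.05 and 0.09, and without replicate 1 that of Dnah9 turned, to -0.03.

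Of the central pair, Hydin averaged -0.22 ± 0.26 and Spag6 -0.23 ± 0.21 (each SD, n = 3), and Spag6 passed without replicate 1 (limma adjusted p = 0.0350). The accession of the probe named Spag6 belongs in RefSeq to Spag6l, on chromosome 16, and whether it also reads the gene now called Spag6 was not tested. The signal of Spag16 in Cy3 never stood well above background, with 82.1, 92.8 and 97.2 units in older-mother pools and 93.5, 93.8 and 91.9 in young-mother pools (limma adjusted p = 0.663), so the groups overlapped. Ccdc39 and Ccdc40, which set the spacing of arms and spokes along the doublet, differed in sign, at 0.16 ± 0.08 and -0.10 ± 0.21 (each SD, n = 3). Ccdc39 was higher on 3 of 3 arrays, with 202, 203 and 221 units in older-mother pools and 179, 192 and 189 in young-mother pools, and did not pass (limma adjusted p = 0.0764). Wdr16, a protein of the doublet lumen, had 295, 191 and 289 units in older-mother pools and 250, 335 and 334 in young-mother pools. Its ratio of -0.26 ± 0.53 (SD, n = 3) came from array 2, at -0.81, and became 0.02 without it. Ift172, of the transport system that every cilium uses, averaged -0.02 ± 0.08 (SD, n = 3) and was among the steadiest across arrays. Cfap126, read through its accession by 2 probes under an older name, had means of -0.33 ± 0.48 and -0.27 ± 0.38 (SD, n = 3), and both were lowest on array 2 and highest on array 1.

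**Figure D2:**
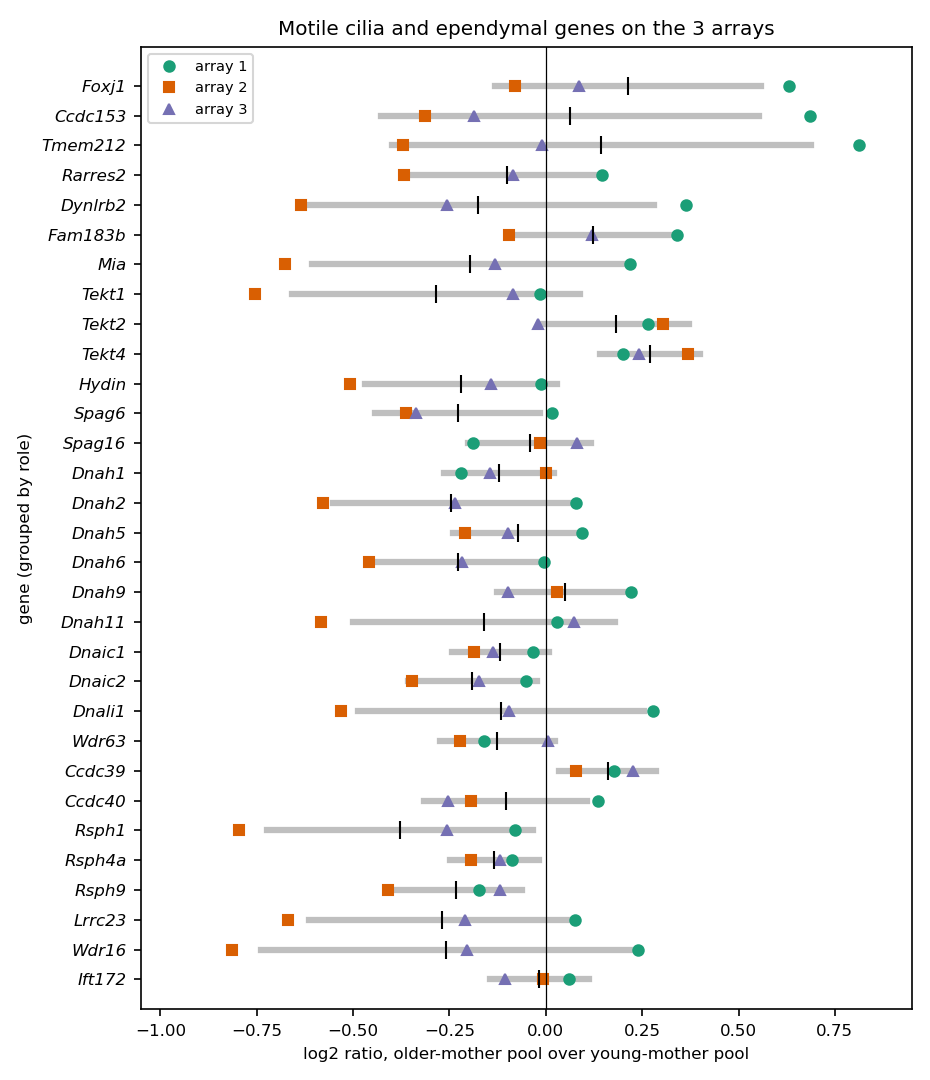
Log2 ratio of the older-mother over the young-mother pool for the 31 tested genes, with a symbol for each array, a black tick for the mean and a grey bar for the 95% interval of the limma fit. Array 2 had the lowest ratio in 24 of 31 genes, and the interval of Tekt4 ran from 0.14 to 0.40.

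Most of the genes put the arrays in one order. Array 2 had the lowest ratio in 24 of 31 genes (77.4%, against 28.0% of all genes tested). Array 1 was above array 2 in 27 of 31 (87.1%, against 51.4% of all genes tested). The full order, array 2 lowest, then array 3, then array 1, was found in 20 of 31 genes (64.5%, against 15.1% of all genes), and in 20 of 31 with the deposited values. These were not all the same genes, since with the deposited values Ccdc39 had the full order and Spag6 did not. All 7 ependymal markers had the full order. Their gap between arrays 1 and 2 had a median of 0.90 on the log2 scale (from 0.43 to 1.18), with 0.30 for the other 24 genes. The median ratios of the 31 genes were 0.08, -0.35 and -0.12 on arrays 1, 2 and 3. Spearman's rho between SD and average intensity was 0.18 across the 31 genes, which share pools and arrays. Since array and pool are one, a difference of pools and one of hybridisation cannot be told apart.

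Markers of the choroid plexus, whose amount in a hippocampal sample depends on the dissection, had another order. Of 23 tested, 21 were lowest on array 2 and highest on array 3 (91.3%), an order held by 4 of 31 cilia and ependymal genes (12.9%), Dnah11, Wdr63, Ccdc39 and Rsph9, where 12.9% of all genes had it. With the deposited values 3 of 31 had this order, as Ccdc39 did not. Choroid plexus medians were -0.62, -1.46 and -0.29 on arrays 1, 2 and 3. Both sets were thus lowest on array 2, but on array 1 0 of 23 choroid plexus markers and 20 of 31 cilia and ependymal genes were above 0. Of all 19528 genes tested, 8676 were above 0 on array 1. Ttr, the thyroxine carrier, was at -1.67, -3.95 and -0.63, Kl at -0.90, -1.75 and -0.33 and Folr1, a folate receptor, at -0.60, -1.93 and -0.33. The summed intensity of the 23 markers without Ttr was 26226, 16216 and 54109 units in older-mother pools and 52210, 66099 and 69608 in young-mother pools. That of the 31 cilia and ependymal genes was 18086, 15270 and 18212 units in older-mother pools and 16485, 19228 and 19315 in young-mother pools. By these sums both sets ranked the pools alike. From lowest to highest, the older-mother pools stood in the order of arrays 2, 1, 3, and the young-mother pools in the order 1, 2, 3. Intensities were balanced within arrays only, so pool content and array brightness cannot be told apart in these ranks. Every choroid plexus marker but Cldn1 was above background in one dye throughout. The part of choroid plexus tissue in the cilia gene ratios was not tested.

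**Figure D3:**
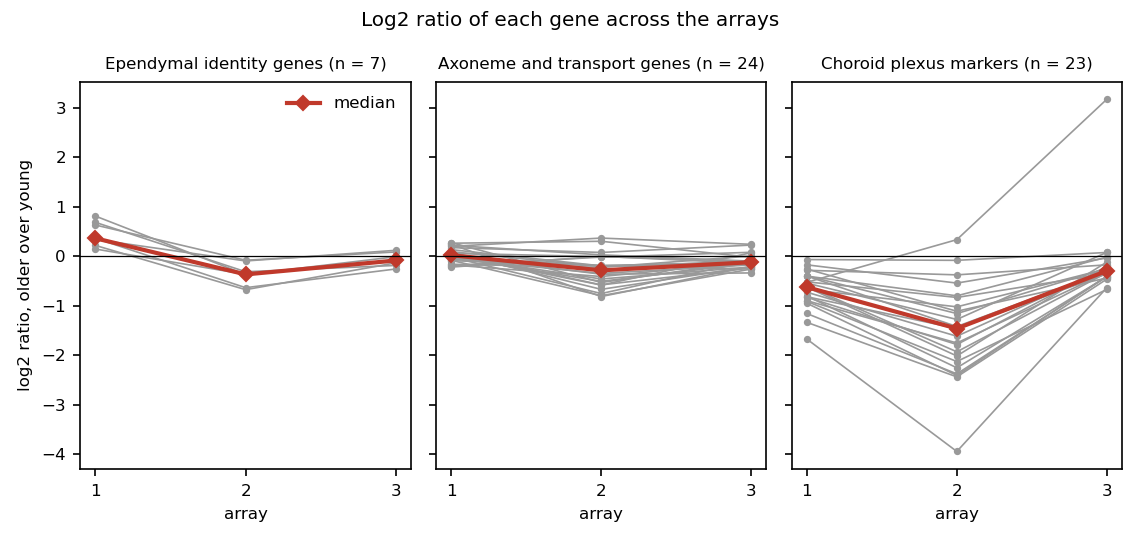
Log2 ratio of older-mother over young-mother pools on arrays 1, 2 and 3, with a grey line per gene that joins its values and the median in red, for 7 ependymal markers, the other 24 cilia genes and 23 choroid plexus markers. The medians of the choroid plexus markers were -0.62, -1.46 and -0.29; the line that reaches 3.18 on array 3 is Kcne2.

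**Figure D4:**
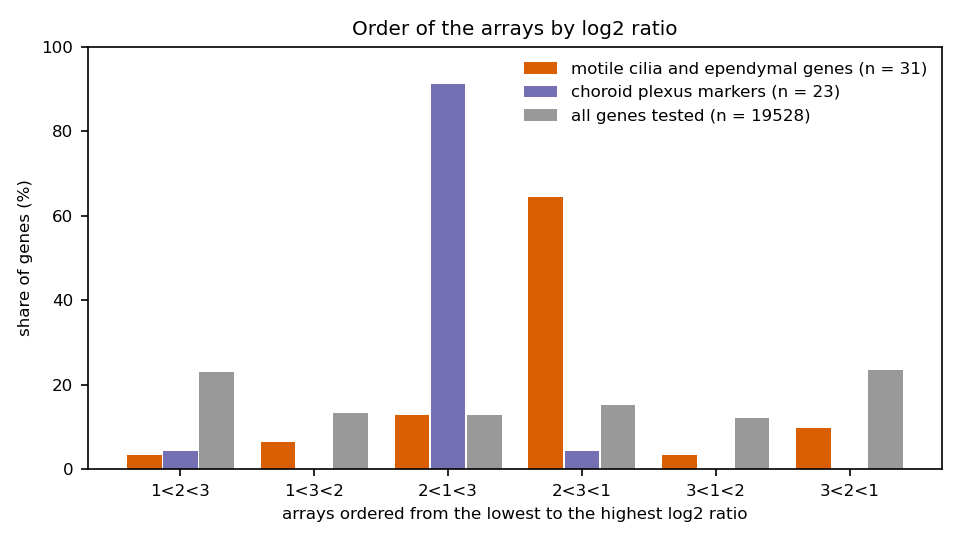
Share of genes (%) with each of the 6 possible orders of the arrays by log2 ratio, from lowest to highest. The commonest order was 2, 3, 1 in cilia and ependymal genes (64.5%) and 2, 1, 3 in choroid plexus markers (91.3%).

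By test, 6 of 23 choroid plexus markers fell and 0 rose, where 11.7% of all genes fell and 7.79% rose. The 6 were Kcnj13 (-1.41), Sostdc1 (-1.24), Trpv4 (-0.88), Slc4a5 (-0.65), Cab39l (-0.57) and Col8a1 (-0.28, above background in Cy3 on 1 array). Without replicate 1 the number was 0, where 7.51% of all genes fell. Without replicate 3 it was 0 too, but there 0% of all genes fell, so that count could not differ. Without replicate 2 it was 8, where 1.55% of all genes fell. Ttr did not pass (-2.08 ± 1.70, SD, n = 3, limma adjusted p = 0.0645), nor did Enpp2, a secreted lysophospholipase (-1.32 ± 0.99, SD, n = 3, limma adjusted p = 0.0555). Of 15 leptomeningeal fibroblast markers 10 fell, with a median of -0.38, among them Ogn (-0.40), Fmod (-0.36), Aldh1a2 (-0.46) and Omd (-0.34, above background in Cy3 on 1 array). The array order of the choroid plexus markers was held by 8 of the 15 (53.3%, against 12.9% of all genes). Array 2 was lowest in 60% of the 15, against 28.0% of all genes, and 0 of the 15 were above 0 on array 1. The part of meningeal tissue in the cilia gene ratios was not tested either. Of the 3 brightest, Dcn (-0.16) and Col1a2 (-0.44) did not pass, and Slc13a3 (-0.35) did. Astrocyte markers had 1 of 11 higher, Gfap at 0.48 ± 0.12 (SD, n = 3, limma adjusted p = 0.0155), and 0 lower. Aldoc, S100b and Slc1a3 were at -0.07, 0.03 and -0.02. Among neuron markers Zbtb20 (0.26) and Calb1 (0.24) rose and Neurod6 (-0.34) and Grin1 (-0.28) fell, with Pcp4 at -0.13 and Camk2a at 0.04.

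Other genes of the same machinery were listed by role and not by value. Of 104 tested, 2 rose and 7 fell, where 7.79% and 11.7% of all genes did, with a median log2 ratio of -0.05. Array 2 was lowest in 51.3% of the 78 genes of motile cilia and in 30.8% of the 26 genes of intraflagellar transport, against 28.0% of all genes. Their median SD was 0.11 and 0.06, and that of 12 genes of the primary cilium, the immotile antenna of neurons, was 0.09. Wdr78, which belongs to the dynein arms and was singled out after its values were seen, had the shape of the ependymal markers, at 0.90, -0.40 and -0.02.

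Among regulators of multiciliation Myb rose (0.23 ± 0.12) and Ccno, a cyclin-like protein, fell (-0.43 ± 0.22, each SD, n = 3). Mcidas (-0.06), Tfdp1 (0.03) and Trp73 (-0.15) did not pass. The Mcidas probe was very bright, at 30743 to 35890 units, and whether it reads only Mcidas was not tested. Of arm and docking genes Ccdc103 fell (-0.28 ± 0.03, SD, n = 3), and Dnal4 (-0.05), Ccdc114 (0.03) and Dynll1 (0.14) did not pass. No arm assembly gene of 10 passed in limma, 3 being higher and 1 lower at an unadjusted p under 0.05, and Ruvbl1, Ruvbl2 and Heatr2 were at 0.15, -0.07 and 0.20. Of 24 genes of spokes, nexin links and central pair, Rsph6a rose (0.21 ± 0.08), and Nme5 (-0.32 ± 0.14) and Ccdc65 (-0.44 ± 0.06, each SD, n = 3) fell. Lrrc48 (-0.03), Spef2 (0.14) and Rsph3b (0.02) did not pass. Of doublet proteins Efhc2 fell (-0.21 ± 0.02, SD, n = 3), with Gtl3 at 0.07 and Ccdc19 at -0.00. In intraflagellar transport Ttc30b (-0.37 ± 0.05) and Ift22 (-0.19 ± 0.03, each SD, n = 3) fell, and Ift46 (-0.07), Kif3a (0.28) and Ift57 (-0.09) did not pass. Of primary cilium genes Bbs4 rose (0.21 ± 0.04) and Pkd2 fell (-0.20 ± 0.08, each SD, n = 3), and Sstr3 (-0.17) and Pkd1 (-0.02) did not pass. Without replicate 3, 0 of the 104 machinery genes rose or fell, while 0.143% of all genes rose and 0 fell.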

How the data were processed

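Hippocampal RNA was measured on 3 two-colour Agilent arrays. Per the file headers, the scanner files come from Agilent Feature Extraction 10.10.1.1 with probes placed on mm9. Mean spot signals and median local backgrounds are raw intensity values, and processed signals are intensity values corrected for background and dye, per the file headers. The log10 ratio column is processed Cy5 over Cy3, and above-background, saturation and outlier marks are other values of 0 or 1, per the file headers. The authors' deposited table is of log2 ratios, Cy3 over Cy5, with array medians of -0.0054, -0.0051 and -0.0056; normexp and loess on median signals gave its values within 5.0e-10, which settled scale and direction.

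Values were computed with limma 3.58.1 in R 4.3.3 (jsonlite 2.0.0, with the data.table package at 1.17.8): normexp with an offset of 50, loess within each array (span 0.3, control and outlying spots at weight 0), and spots of a probe averaged. The offset pulls ratios of dim probes towards 0. Of 39429 probes, 27631 were kept as well above background in Cy3 or in Cy5 on all 3 arrays, and the brightest kept probe stood for a gene (10 of the genes had several probes). The log2 ratio was tested against 0 with lmFit and eBayes, two-sided, with 2 residual and 3.42 prior degrees of freedom, and Benjamini-Hochberg adjustment. The method was tested on simulated data with noise drawn separately for each probe. That does not cover genes that share a pattern across arrays. Pools of the same number share an array, so the ratio is paired by design. The 3 arrays lay on 1 slide in 1 scan, and their number limits the precision. Pools are biological samples per the labels. Intensities were balanced within arrays, not between them.

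The genes and lists were chosen with earlier results of these data known. Every one of the 34 genes was to be named, and of each other list the 3 brightest genes, the called genes (the 4 with the smallest p where over 6 were called), and Ttr, Kcnj13, Kl and Folr1; some genes that this names are not reported here. Alternatives were other background corrections, median centring, the deposited values, other filters, a variance trend, the mean over probes, unpaired channels and leaving out each replicate.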

Additional observations from a re-analysis of the deposited data

How the results depend on the processing

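Of the 31 genes, each kept its direction and its side of the threshold with an offset of 16, with the deposited table, without a filter and with the mean over probes; the stricter filter left 28 genes, all alike. With Agilent's processed signals 0 of them rose and 1 fell (Spag16, near background), 2 had the array order of the choroid plexus, Ift172 turned to 0.030, and 1 choroid plexus marker fell, where 3.88% of all genes rose and 5.41% fell. Without background correction 1 of the genes fell, and 5 machinery genes rose and 11 fell (10.2% and 16.7% of all genes). The offset of 16 gave 1 and 4 machinery genes and 2 choroid plexus markers (5.73% and 8.3% of all genes), the deposited values gave 0 machinery genes that rose (6.79%), and the variance trend 1 gene that fell, 4 machinery genes that rose and 3 choroid plexus markers that fell (9.45% and 13.6%). Without the pairing of pools by array (no replicate block) 0 of the 31 genes rose and 3 choroid plexus markers fell, with 8.25% and 12.6% of all genes. With median centring all genes had a median of -0.39 and the 31 genes one of -0.46. There 3 of the 31 rose and 17 fell (18.8% and 66.2% of all genes), 2 had the choroid plexus order, 19 machinery genes rose and 66 fell, and 20 choroid plexus markers fell; Foxj1 (-0.20), Ccdc153 (-0.41), Tmem212 (-0.22), Fam183b (-0.47), Tekt4 (-0.12), Dnah9 (-0.36), Spag16 (0.46), Dnah1 (0.19) and Dnah5 (0.067) turned sign. The cause of these differences was not tested.

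Leaving out each replicate in turn gave 0 to 1 genes that rose and 0 to 1 that fell, a median from -0.23 to -0.02, 0 to 1 machinery genes that rose and 0 to 10 that fell, and 0 to 8 choroid plexus markers that fell. Leaving out replicate 1, 5.13% of all genes rose and 7.51% fell. Leaving out replicate 2 these shares were 1.3% and 1.55%, and for replicate 3 they were 0.143% and 0. The genes whose sign turned ranged from -0.25 to 0.25 (Ccdc153), -0.19 to 0.40 (Tmem212), -0.23 to 0.031 (Rarres2), -0.45 to 0.053 (Dynlrb2), -0.40 to 0.043 (Mia), -0.10 to 0.032 (Spag16), -0.035 to 0.13 (Dnah9), -0.28 to 0.051 (Dnah11), -0.31 to 0.090 (Dnali1), -0.51 to 0.017 (Wdr16) and -0.056 to 0.027 (Ift172). A slide or scan block could not be fitted, since there was 1 of each. Signal over background limits Spag16, Tekt2 and Dnah11, which were not above background in Cy3 on every array.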
